A study of Saccharomyces cerevisiae with 26 samples.

Results

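The 10 genes described here encode the enzyme Cit2, the first steps of the citrate cycle and the regulators of the retrograde response in budding yeast. CIT2 was picked because its signal was higher in pub1Δ cells, and the other 9 genes were added for their known places around it: CIT1 and CIT3 (the other citrate synthases), ACO1, IDH1 and IDH2 (the cycle enzymes that follow), DLD3 (a further target) and RTG1, RTG2 and RTG3 (the regulators). They are 10 of the 7036 genes in the count table. CIT3 did not reach the minimum level required for a test, so 9 of them were among the 4473 genes tested. Because CIT2 was chosen on its values in pub1Δ, those values are given as a description with no test.

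The retrograde response is a signalling route from mitochondria to the nucleus. When respiration is impaired, the transcription factors Rtg1 and Rtg3 enter the nucleus as a pair and switch on genes that keep up the supply of 2-oxoglutarate and glutamate, and CIT2, which encodes the citrate synthase of peroxisomes, is the classical reporter of this response. Rtg2 acts upstream by binding the inhibitor Mks1. The pair Rtg1 and Rtg3 recognises a short DNA element, the R box. In respiring cells the Hap complex, which recognises CCAAT, drives several citrate cycle genes, whereas CIT1, ACO1, IDH1 and IDH2 come to need the Rtg proteins when respiration is lost.

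Cells of the haploid strain BY4742 were grown exponentially in YPD, a rich medium with glucose, in which respiration is largely repressed. Besides the auxotrophies of BY4742 (his3Δ1 leu2Δ0 lys2Δ0 ura3Δ0), which all libraries share, pub1Δ cells lacked PUB1, encoding a poly(U)-binding protein, and gir2Δ cells lacked GIR2, encoding the partner of the GTPase Rbg2, each gene replaced by a KanMX cassette, while wt cells carried no KanMX deletion. RNA-Seq, made from poly(A)-selected RNA, covered 5 pub1Δ, 4 gir2Δ and 5 wt libraries, and Ribo-Seq, the sequencing of mRNA fragments protected by ribosomes, covered 4 libraries of each strain. The labels do not say that replicates came from separate cultures or transformants, so the p-values below measure the spread between these libraries, which may be technical.

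RNA-Seq libraries held 2217490 to 3896827 counts and Ribo-Seq libraries 540986 to 3123180, the shallowest being pub1Δ Ribo-Seq replicates 1 to 3 with at most 986174. The labels place the libraries in 4 batches, and batch 3 held pub1Δ libraries alone and batch 2 gir2Δ libraries alone, so that strain and batch cannot be told apart there. With batch in the model, the pub1Δ change therefore rests on RNA-Seq replicates 4 and 5 and on Ribo-Seq replicate 4, and the gir2Δ change on replicate 4 of each assay. PUB1 had 47 RNA-Seq counts in pub1Δ replicate 4 and 1 to 3 in the other pub1Δ libraries, against 573 to 703 in gir2Δ and 639 to 1013 in wt. In Ribo-Seq it had 20 counts in pub1Δ replicate 2 and 1 to 6 in the other pub1Δ libraries, against 1236 to 2043 in gir2Δ and 1155 to 2457 in wt. GIR2 had 1 to 16 counts in gir2Δ RNA-Seq libraries and 375 to 504 in wt. For 1 pub1Δ library, RNA-Seq replicate 1, title and strain say pub1 and the genotype field says gir2. It held 894 counts of GIR2 and 1 of PUB1.

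The R box was looked for because it is the site through which Rtg1 and Rtg3 act. The letters searched were GTCAC, or GTGAC for the other strand, in the 500 bases before each start codon of the RefSeq genome (build R64), so that R boxes could be counted for 6025 genes, 42.3% of which had at least 1, 11.2% at least 2 and 2.29% at least 3. CIT2 had 3 matches, DLD3, IDH1 and RTG3 had 2 each, CIT1, CIT3, ACO1, RTG1 and RTG2 had 1 each, and IDH2 had 0. The stretches of CIT2, DLD3 and CIT1 are shown 5′ to 3′ on the strand of each gene because they carry the paired boxes of CIT2 and DLD3 and the single box of CIT1, the mitochondrial counterpart of CIT2. Capitals mark the R box. They lie at chrIII:122624-122685 (minus strand) and chrIII:122508-122536 (minus strand) for CIT2, at chrV:16183-16228 (plus strand) for DLD3 and at chrXIV:631413-631441 (minus strand) for CIT1.
CIT2 distal: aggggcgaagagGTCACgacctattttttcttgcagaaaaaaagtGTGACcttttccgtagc
CIT2 proximal: cgtatgaaattgGTGACgttaatctaaag
DLD3: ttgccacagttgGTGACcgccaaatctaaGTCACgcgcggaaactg
CIT1: gtgctaaaaggcGTCACgtttttttccgc

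The distal pair of CIT2 begins 345 and 312 bases before the start codon, and both boxes fall inside YCR006C, a reading frame that RefSeq lists on the same strand from 122530 to 123003, 201 bases from CIT2. The proximal match, at 196 bases, shares its first base with a CCAAT match on the other strand (ATTGG). The boxes of DLD3 begin 160 and 143 bases before its start codon, with no coding sequence of another gene within 500 bases. The box of RTG1, at 194 bases, falls inside the neighbouring coding sequence YOL066C. CCAAT, or ATTGG, was present before 62.3% of the 6025 genes and before each of the 10 genes except DLD3. A match to 5 letters is a description of the sequence, and its use in these cells was not measured.

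**Figure D1:**
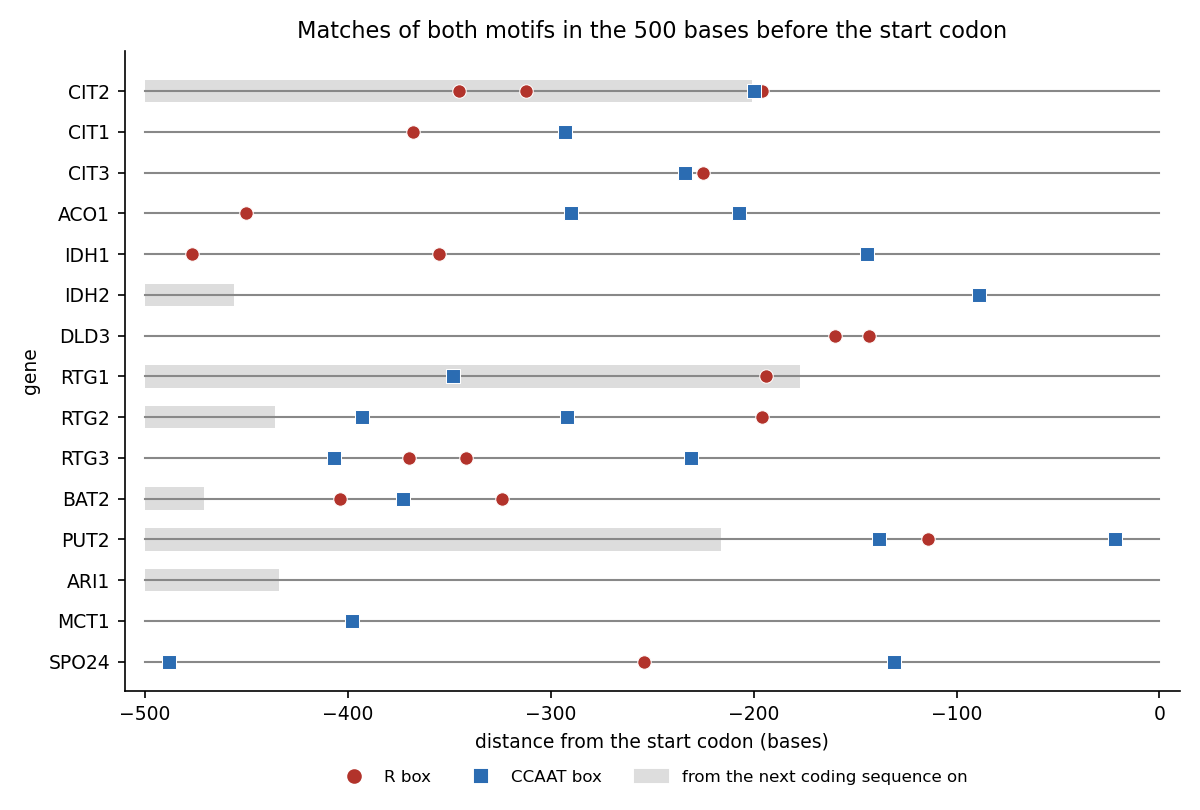
Positions of the R box and CCAAT matches (first base of each match, in bases from the start codon) for the 10 genes and, below them, for the 5 genes whose levels were most like those of CIT2. Grey marks where the next annotated coding sequence begins. CIT2 has 3 R boxes, the 2 farther ones inside the neighbouring reading frame, and IDH2 has 0.

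CIT2 (YCR005C, chromosome III 120946 to 122328, minus strand) encodes the peroxisomal citrate synthase. In RNA-Seq it stood at 90.9, 125, 93.8, 87.8 and 99.4 normalised CPM (CPM, reads of a gene relative to the scaled depth of its library) in pub1Δ replicates 1 to 5, at 54.9, 70.0, 55.8 and 55.6 in gir2Δ replicates 1 to 4, and at 65.7, 60.1, 55.0, 74.5 and 68.6 in wt replicates 1 to 5. Every pub1Δ library lay above every wt and every gir2Δ library, and the gir2Δ and wt libraries overlapped. In Ribo-Seq, CIT2 stood at 71.2, 88.7, 78.4 and 94.3 in pub1Δ, at 36.3, 46.6, 29.8 and 26.2 in gir2Δ, and at 39.9, 43.3, 29.3 and 39.2 in wt. Again the pub1Δ libraries formed a separate group and the other strains overlapped. The share of all tested genes with every pub1Δ library above the wt range was 2.97% in RNA-Seq and 1.74% in Ribo-Seq. Above the gir2Δ range it was 5.14% for transcripts and 7.2% for footprints.

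**Figure D2:**
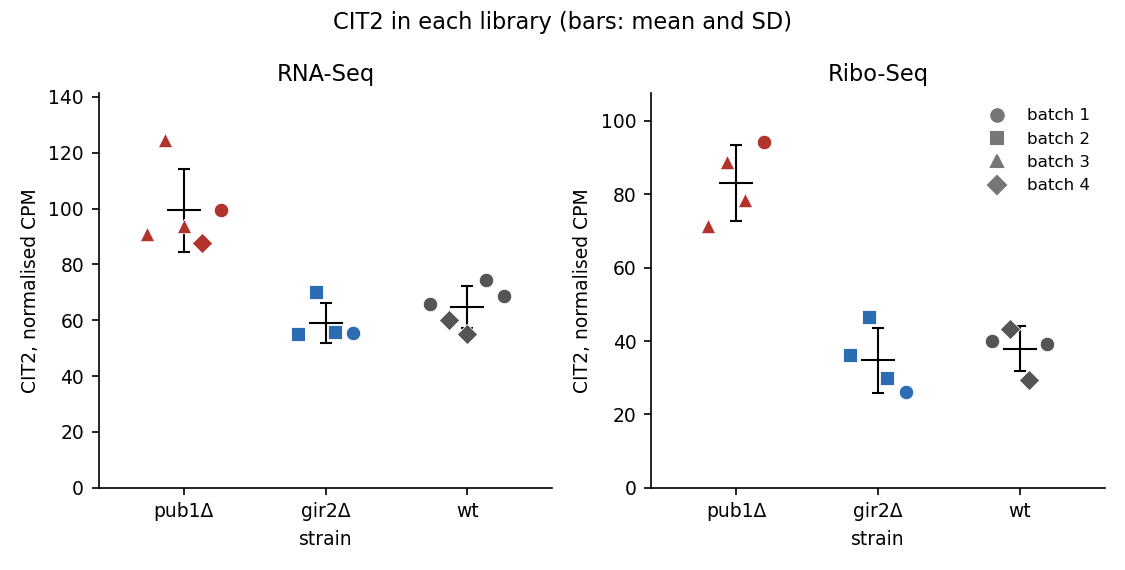
Normalised CPM of CIT2 in each library of pub1Δ, gir2Δ and wt, for RNA-Seq (left) and Ribo-Seq (right). Symbols give the batch, and bars the mean and SD of a strain. The lowest pub1Δ value, 87.8 in RNA-Seq and 71.2 in Ribo-Seq, lies above the highest value of wt and gir2Δ.

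Within batches the direction for CIT2 was the same. In batch 1, the single pub1Δ RNA-Seq library had 99.4 normalised CPM of CIT2, against a mean of 69.6 over the 3 wt libraries. In batch 4 the pub1Δ library had 87.8, against a mean of 57.5 over 2 wt libraries. In Ribo-Seq the only batch with both strains was batch 1, where pub1Δ replicate 4 had 94.3, against a mean of 39.6 over 2 wt libraries, and the batch 3 libraries of pub1Δ reached 71.2 to 88.7 with no wt library beside them.

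The fitted log2 change of CIT2 in pub1Δ relative to wt was 0.56 (SE 0.13) for transcripts and 1.25 (SE 0.20) for footprints. The footprint change exceeded the transcript change, and the log2 difference between both, the change in ribosome occupancy, was 0.69 (SE 0.25). In libraries that share strain, replicate number and batch, footprint CPM per transcript CPM of CIT2 was 0.711 to 0.836 in 3 pub1Δ pairs, 0.471 to 0.666 in 4 gir2Δ pairs and 0.527 to 0.721 in 4 wt pairs. The pub1Δ and wt ranges of this ratio overlapped. All 3 pub1Δ pairs were of batch 3, which held no wt or gir2Δ library, so strain and batch cannot be told apart in this ratio. With strain and replicate number as a block in place of the batch terms, the log2 occupancy change of CIT2 was 0.38. The labels do not say that a number marks the same culture in both assays, and pub1Δ replicate 4 is of batch 4 in RNA-Seq and of batch 1 in Ribo-Seq. According to the methods, the lysate was divided between mRNA isolation and footprints. Deviations from the group mean were compared between same-numbered libraries of both assays. Their correlation was 0.749 to 0.784 in wt, 0.086 to 0.267 in gir2Δ and -0.37 to 0.39 in pub1Δ, replicate 4 being lowest. These deviations include differences between batches.

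The coding sequence of CIT2 can be told apart from its paralogs. None of the 1356 windows of 28 bases, about the length of a footprint, in the CIT2 coding sequence occurred anywhere else in the genome, and the longest run shared with CIT1 was 21 bases and with CIT3 14 bases. On the opposite strand of CIT2 the libraries held 0 to 2 counts.

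In gir2Δ cells CIT2 did not pass the test. Its log2 change relative to wt was -0.31 for transcripts (SE 0.19, edgeR adjusted p 0.454) and -0.60 for footprints (SE 0.29, edgeR adjusted p 0.602). Between both deletion strains, the fitted log2 difference of CIT2, pub1Δ minus gir2Δ, was 0.87 (SE 0.21) for transcripts and 1.85 (SE 0.29) for footprints, given without a test because the pub1Δ values chose the gene.

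CIT1 (YNR001C, chromosome XIV 629622 to 631061, minus strand) encodes the mitochondrial citrate synthase and is the closest relative of CIT2 in function. In RNA-Seq it stood at 136, 208, 202, 226 and 171.5 normalised CPM in pub1Δ, at 135, 180.1, 165 and 161 in gir2Δ, and at 178, 245, 112, 209 and 191 in wt. In Ribo-Seq it stood at 147, 197, 196 and 174 in pub1Δ, at 124, 116, 163 and 132 in gir2Δ, and at 173, 189, 117 and 151 in wt. The strains overlapped in both assays, the wt libraries of batch 4 (replicates 2 and 3) giving both the highest and the lowest wt value of CIT1. The log2 change in pub1Δ was 0.08 for transcripts (SE 0.22, edgeR adjusted p 0.937) and 0.10 for footprints (SE 0.23, edgeR adjusted p 0.953), and the interval of 2 SE for footprints ran from -0.35 to 0.56.

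Per kilobase of coding sequence, the mitochondrial enzyme had more transcript than the peroxisomal one. In pub1Δ RNA-Seq CIT1 had 131 ± 24.7 and CIT2 71.8 ± 10.7 normalised CPM per kilobase, and in wt RNA-Seq CIT1 had 129.9 ± 33.8 and CIT2 46.8 ± 5.45 (SD, n = 5 each). The ratio of CIT2 to CIT1 CPM within a library, in Ribo-Seq, was 0.40 to 0.542 in pub1Δ, 0.183 to 0.401 in gir2Δ and 0.229 to 0.261 in wt. In RNA-Seq the ratio was 0.389 to 0.670 in pub1Δ, 0.337 to 0.407 in gir2Δ and 0.246 to 0.490 in wt. The pub1Δ and wt ranges of this ratio were separate for footprints and overlapped for transcripts. Because CIT2 was chosen on its pub1Δ values, this ratio is a description too.

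CIT3 (YPR001W, chromosome XVI 556377 to 557837, plus strand), encoding a minor mitochondrial citrate synthase, was barely detected. It had 6 to 25 RNA-Seq counts in pub1Δ, 9 to 19 in gir2Δ and 5 to 13 in wt, and 0 to 3 Ribo-Seq counts in pub1Δ, 1 to 4 in gir2Δ and 0 to 7 in wt. At this depth no difference could be shown. Without the filter on low counts the log2 footprint change of CIT3 in pub1Δ was -2.87 (SE 1.30, edgeR adjusted p 0.675), which rests on these few reads.

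ACO1 (YLR304C, chromosome XII 735212 to 737548, minus strand) encodes aconitase, which turns citrate into isocitrate. In RNA-Seq it stood at 209, 298, 366, 403 and 427 normalised CPM in pub1Δ, at 332, 376, 373 and 354 in gir2Δ, and at 496, 463, 302, 397 and 492 in wt. In Ribo-Seq it stood at 539, 596, 908 and 898 in pub1Δ, at 739, 777, 878 and 814 in gir2Δ, and at 917, 835, 639.6 and 996 in wt. The lowest ACO1 values were those of pub1Δ replicates 1 and 2, both of batch 3, and the other pub1Δ libraries lay inside the wt range. With batch in the model the log2 change of ACO1 in pub1Δ was -0.02 for transcripts (SE 0.18, edgeR adjusted p 0.970) and -0.09 for footprints (SE 0.21, edgeR adjusted p 0.959).

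IDH1 (YNL037C, chromosome XIV 557920 to 559002, minus strand) and IDH2 (YOR136W, chromosome XV 580250 to 581359, plus strand) encode the subunits of the NAD-dependent isocitrate dehydrogenase. IDH1 ranged over 117 to 162 normalised CPM in pub1Δ RNA-Seq, 119 to 143 in gir2Δ and 112 to 169 in wt, and over 141 to 280.3 in pub1Δ Ribo-Seq, 207 to 222 in gir2Δ and 154 to 258 in wt. IDH2 had 190.1, 264, 289.8, 273 and 259 normalised CPM in pub1Δ RNA-Seq, 199.5, 230.2, 176 and 181 in gir2Δ, and 207, 252, 188, 215 and 237 in wt. In Ribo-Seq IDH2 had 251, 298, 370.5 and 404 in pub1Δ, 278, 278, 279 and 274 in gir2Δ, and 328, 301, 218 and 321 in wt. IDH2 lay above the wt range in 4 of 5 pub1Δ RNA-Seq libraries and in 2 of 4 pub1Δ Ribo-Seq libraries, so the strains overlapped. The log2 change of IDH2 in pub1Δ was 0.27 for transcripts (SE 0.14, edgeR adjusted p 0.599) and 0.32 for footprints (SE 0.17, edgeR adjusted p 0.704), and that of IDH1 was 0.09 (SE 0.13, edgeR adjusted p 0.871) and 0.20 (SE 0.17, edgeR adjusted p 0.828). Neither subunit passed the test. The footprint estimate of IDH1 is positive although its mean over all libraries was 199 normalised CPM in pub1Δ, against 212 in wt, since with batch in the model it rests on pub1Δ replicate 4.

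DLD3 (YEL071W, chromosome V 16355 to 17845, plus strand) encodes a cytosolic enzyme that oxidises 2-hydroxyglutarate and D-lactate, and it is a known target of Rtg1 and Rtg3. In RNA-Seq it stood at 263, 355, 265, 297 and 353 normalised CPM in pub1Δ, at 243, 270.4, 205 and 204 in gir2Δ, and at 251, 296, 280.3, 306 and 267 in wt. In Ribo-Seq it stood at 355, 435, 388 and 497 in pub1Δ, at 362.5, 406, 273 and 292 in gir2Δ, and at 343, 327, 360.4 and 376 in wt. In pub1Δ Ribo-Seq, replicates 2, 3 and 4 were above the wt range of DLD3 and replicate 1 was inside it, whereas in gir2Δ RNA-Seq replicates 1, 3 and 4 were below it.

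Of the 8 tested genes other than CIT2, DLD3 had the largest log2 footprint change in pub1Δ, 0.47 (SE 0.17, unadjusted p 0.0165), which the edgeR quasi-likelihood test with Benjamini-Hochberg adjustment did not call (adjusted p 0.501). Its log2 transcript change was 0.22 (SE 0.13, edgeR adjusted p 0.648). In batch 1 alone, pub1Δ Ribo-Seq replicate 4 had 497 normalised CPM of DLD3, against a mean of 359.6 over 2 wt libraries. A pair of other settings called DLD3 in pub1Δ Ribo-Seq. The first, ComBat-seq correction before a model without batch, which is the order of steps in the study, gave DLD3 a log2 change of 0.48 (SE 0.10, edgeR adjusted p 0.00627) and also called IDH2 at 0.33 (SE 0.08, edgeR adjusted p 0.0180), but this setting called 12.2% of all tested genes. The second used batch 1 alone, gave DLD3 0.49 and IDH2 0.34, and called 5.05% of all tested genes. It holds 1 pub1Δ library without a replicate, so its spread comes from 2 wt libraries alone and the pub1Δ library is assumed to vary like them.

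Relative to DLD3, CIT2 stood highest in pub1Δ. The ratio of CIT2 to DLD3 CPM within a library was 0.190 to 0.204 in pub1Δ Ribo-Seq, 0.0897 to 0.115 in gir2Δ and 0.0812 to 0.133 in wt. In RNA-Seq it was 0.282 to 0.353 in pub1Δ, 0.226 to 0.272 in gir2Δ and 0.196 to 0.262 in wt. In both assays the pub1Δ range of this ratio was separate from those of the other strains. CIT2 was chosen on its pub1Δ values, so a higher ratio there follows in part from that choice and is a description. The interval of 2 SE around the log2 footprint change in pub1Δ ran from 0.85 to 1.65 for CIT2 and from 0.12 to 0.82 for DLD3, and the difference between the genes was not tested.

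**Figure D3:**
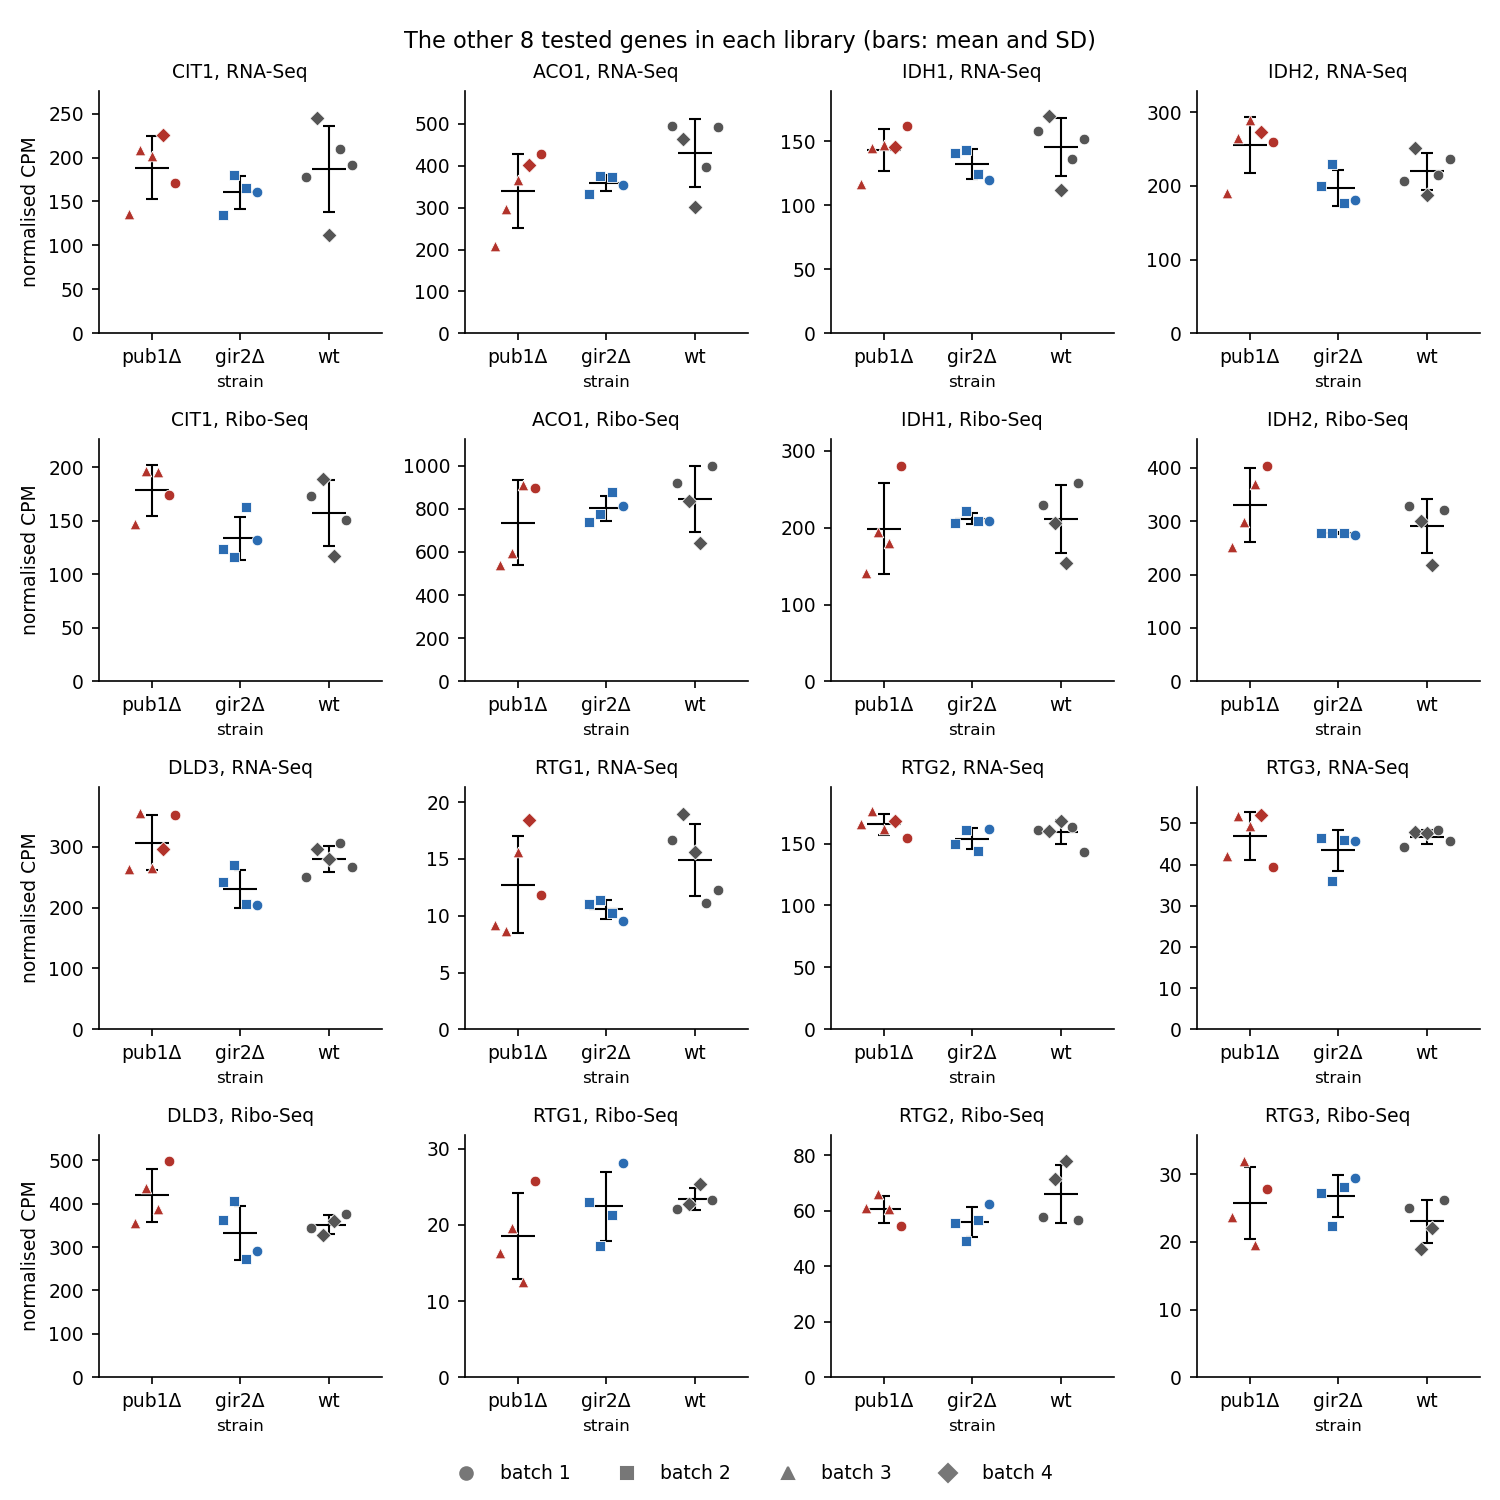
Normalised CPM of the other 8 tested genes in each library of pub1Δ, gir2Δ and wt, with RNA-Seq above Ribo-Seq for each gene. Symbols give the batch, and bars the mean and SD of a strain. The strains overlap in every panel.

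The regulators themselves did not pass the test in any comparison. RTG1 (YOL067C, chromosome XV 201985 to 202518, minus strand), a member of the transcription factor pair, had few reads, with 8.64 to 18.5 normalised CPM in pub1Δ RNA-Seq, 9.51 to 11.4 in gir2Δ and 11.1 to 18.9 in wt. In Ribo-Seq RTG1 had 12.5 to 25.7 in pub1Δ, 17.2 to 28.2 in gir2Δ and 22.0 to 25.4 in wt, and the lowest of these values rested on 7 counts. RTG3 (YBL103C, chromosome II 22076 to 23536, minus strand), its partner, had 39.5 to 52.1 in pub1Δ RNA-Seq, 36.1 to 46.4 in gir2Δ and 44.2 to 48.4 in wt, and 19.6 to 32.0 in pub1Δ Ribo-Seq, 22.3 to 29.5 in gir2Δ and 19.0 to 26.1 in wt. All strains overlapped for both partners.

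RTG2 (YGL252C, chromosome VII 25718 to 27484, minus strand), which encodes the sensor protein that relieves inhibition by Mks1, had the smallest SE of the 9 in the pub1Δ RNA-Seq comparison. It had 154 to 177 normalised CPM in pub1Δ RNA-Seq, 144 to 162 in gir2Δ and 143 to 169 in wt, and 54.5 to 66.0 in pub1Δ Ribo-Seq, 49.1 to 62.4 in gir2Δ and 56.5 to 78.1 in wt. Its log2 transcript change in pub1Δ was 0.01 (SE 0.09, edgeR adjusted p 0.972), and the interval of 2 SE ran from -0.17 to 0.19. The log2 transcript changes in pub1Δ of RTG1 and RTG3 were -0.03 (SE 0.26, edgeR adjusted p 0.972) and -0.05 (SE 0.14, edgeR adjusted p 0.932), and their footprint changes 0.18 (SE 0.23, edgeR adjusted p 0.915) and 0.12 (SE 0.23, edgeR adjusted p 0.945). The positive footprint estimate of RTG1 rests on pub1Δ replicate 4, which stood above the wt range, while the other 3 pub1Δ libraries stood below it and the mean was 18.5 normalised CPM in pub1Δ, against 23.3 in wt. The activity of the Rtg proteins is set by their location and partners, which these assays do not measure.

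Footprint CPM per transcript CPM spanned a wide range over the genes. In wt pairs this ratio was 1.80 to 2.51 for ACO1 and 1.104 to 1.37 for DLD3, but 0.347 to 0.463 for RTG2 and 0.396 to 0.566 for RTG3, while RTG1 ranged over 1.21 to 2.08. In gir2Δ RTG1 had the largest log2 occupancy change of the 9 genes, 0.76 (SE 0.43, edgeR adjusted p 0.692), which did not pass the test. In pub1Δ the log2 occupancy change of the 8 genes other than CIT2 lay between -0.08 for RTG2 and 0.25 for DLD3.

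Of the 8 tested genes other than CIT2, edgeR with Benjamini-Hochberg adjustment called 0 in pub1Δ Ribo-Seq, against 0.134% of all tested genes. It called 0 of these 8 in pub1Δ RNA-Seq, against 0.0447% of all genes, and 0 of 8 for pub1Δ occupancy, against 0% of all genes. Of the 8, DLD3 alone had an unadjusted p under 0.05 in pub1Δ Ribo-Seq and none in pub1Δ RNA-Seq, where these shares were 7.91% and 9.39% of all genes, and none did for occupancy, where the share was 3.62%. DESeq2 also called 0 of these 8 for transcripts and occupancy in pub1Δ, and for footprints 0 of the 6 to which it gave an adjusted p. The median log2 change of the 9 genes, CIT2 included, in pub1Δ was 0.08 for transcripts and 0.18 for footprints, beside -0.00 and -0.02 over all tested genes.

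No gene of the 9 other than CIT2 had groups without overlap. Of all tested genes, 1.23% lay wholly below wt in RNA-Seq of pub1Δ, against 2.37% for its footprints. In gir2Δ, 2.3% lay wholly above and 3.11% wholly below wt in RNA-Seq, and 2.79% above and 3.73% below in Ribo-Seq. Between the deletion strains, 6.64% lay wholly lower in pub1Δ than in gir2Δ in RNA-Seq and 9.59% in Ribo-Seq.

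In gir2Δ most of the same genes had negative values, and none passed the test. The median log2 change of the 9 was -0.31 for transcripts and -0.23 for footprints, with 2 of 9 and 3 of 9 above zero, beside -0.00 and -0.04 over all genes. The call counts were 0 of 9 for transcripts, footprints and occupancy, where edgeR called 0.0671%, 0.0224% and 0% of all tested genes. DLD3 had the lowest transcript change, -0.47 (SE 0.18, unadjusted p 0.0209, edgeR adjusted p 0.283), and was the only one of the 9 with an unadjusted p under 0.05 in RNA-Seq, a level that 14% of all genes reached. In Ribo-Seq 0 of 9 reached it, against 8.43% of all genes. The transcript estimate was -0.36 for ACO1 (SE 0.24, edgeR adjusted p 0.497), for IDH1 -0.32 (SE 0.18, edgeR adjusted p 0.426) and for IDH2 -0.27 (SE 0.20, edgeR adjusted p 0.5498) on the log2 scale in gir2Δ RNA-Seq. DESeq2 called 0 of 9 in each of these 3 comparisons. After ComBat-seq, edgeR called CIT2, ACO1, IDH1, IDH2 and DLD3 lower in gir2Δ RNA-Seq, in a setting that called 33.9% of all tested genes. It also called CIT2 footprints lower, beside 25.4% of all genes, and RTG1 occupancy higher, beside 22.9%.

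**Figure D4:**
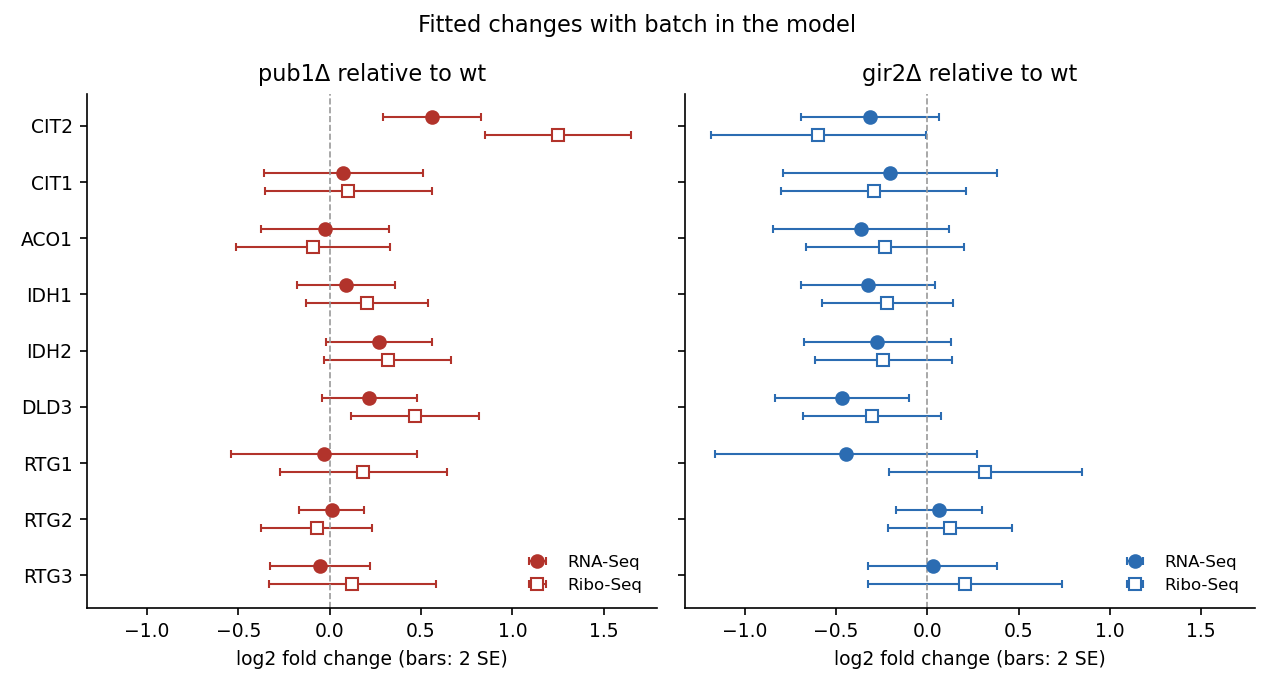
Fitted log2 fold changes of the 9 tested genes in pub1Δ relative to wt (left) and gir2Δ relative to wt (right), filled symbols for RNA-Seq and open symbols for Ribo-Seq, with bars of 2 SE. CIT2 in pub1Δ, at 0.56 and 1.25, stands to the right of the other genes, and the gir2Δ values of the enzymes lie left of 0.

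Between the deletion strains, DLD3 and IDH2 had positive log2 differences that did not pass the test. The log2 difference pub1Δ minus gir2Δ was 0.68 (SE 0.20, edgeR adjusted p 0.140) for DLD3 transcripts and 0.77 (SE 0.21, edgeR adjusted p 0.211) for DLD3 footprints. For IDH2 it was 0.54 (SE 0.23, edgeR adjusted p 0.266) for transcripts and 0.56 (SE 0.21, edgeR adjusted p 0.440) for footprints. Of the 8 genes other than CIT2, edgeR called 0 in RNA-Seq, against 0.313% of all genes, and 0 in Ribo-Seq, against 0.38% of all genes. Without gir2Δ Ribo-Seq replicate 3, DLD3 was called, at a log2 difference of 0.77 (SE 0.16, edgeR adjusted p 0.0427). This was 1 of 6 Ribo-Seq fits that each left out 1 library, and they called 1 to 2 of the 9 genes, CIT2 included. The share of all genes called without that replicate is not given here, so this DLD3 call cannot be set beside it. In each assay DESeq2 gave 6 of the 8 an adjusted p and called 0 of them. Of the 8, an unadjusted p under 0.05 was reached by DLD3 and IDH2 in both assays, as by 14.8% of all genes in RNA-Seq and 9.05% in Ribo-Seq.

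The number of calls over all genes depended on how batch was treated, and the calls of these genes have to be read beside it. In pub1Δ RNA-Seq, edgeR called 0 of the 8 genes other than CIT2 without a batch term, after ComBat-seq and with batch in 2 levels, beside 0.805%, 11.0% and 3.02% of all genes. In pub1Δ Ribo-Seq it called 0 of the 8 without a batch term, with 2 levels and without the filter, beside 0.156%, 1.68% and 0.583%, and 0 of 8 for occupancy after ComBat-seq, beside 2.75%. For pub1Δ against gir2Δ in RNA-Seq, 0 of the 8 were called without a batch term and with 2 levels, beside 1.45% and 1.18%, and ACO1, IDH1, IDH2 and DLD3 were called after ComBat-seq, beside 41.4%. In Ribo-Seq 0 of the 8 were called without a batch term, beside 1.79%, IDH2 with 2 levels, beside 2.79%, DLD3 without the filter, beside 0.757%, and CIT1, IDH1, IDH2 and DLD3 after ComBat-seq, beside 28.1%.

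The remaining genes of the pathway gave 0 edgeR calls in every comparison. In pub1Δ Ribo-Seq an unadjusted p under 0.05 was reached by 0 of 6 modulators, 4 of 13 citrate cycle genes, 0 of 2 glyoxylate cycle genes, 1 of 2 pyruvate carboxylase genes, 0 of 2 further D-lactate dehydrogenase genes, 0 of 3 Hap genes and 2 of 4 glutamate genes, and by 7.91% of all tested genes. Of the genes named from these lists, DESeq2 called FUM1 alone, in pub1Δ against gir2Δ RNA-Seq. All 6 modulators of the route were tested, among them MKS1, the inhibitor, GRR1, which targets Mks1 for destruction, and BMH1 and BMH2, whose products bind Mks1. Their median log2 change in pub1Δ was -0.05 for transcripts and -0.15 for footprints. LST8, a subunit of the TOR complexes that restrains the response, had the highest footprint change of the 6, 0.34 (SE 0.22, edgeR adjusted p 0.792), and TOR1, the kinase, the lowest, -0.28 (SE 0.21, edgeR adjusted p 0.816).

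The other 13 citrate cycle genes held 0 calls. Their median log2 change in pub1Δ was -0.14 for transcripts and -0.25 for footprints, and 1 of 13 had a positive footprint change. Of these, FUM1, encoding fumarase, was highest at 0.02 (SE 0.13, edgeR adjusted p 0.994) and SDH1, encoding the flavoprotein of succinate dehydrogenase, lowest at -1.11 (SE 0.28, edgeR adjusted p 0.140). SDH1 had 37.1, 45.4, 62.3 and 43.2 normalised CPM in pub1Δ Ribo-Seq, against 92.9, 68.4, 44.2 and 93.6 in wt, so the strains overlapped. SDH1 was called after ComBat-seq, beside 12.2% of all tested genes, without the filter, beside 0.583%, and with the compared strains alone, where 17 of the 4473 genes were called. An unadjusted p under 0.05 was reached by 4 of the 13 in Ribo-Seq, SDH1, SDH3, SDH4 and IDP1, all negative, and by 7.91% of all tested genes. SDH3, SDH4 and IDP1 were named after their values were seen. SDH4, encoding a membrane anchor of the same enzyme, had 35.6, 35.1, 44.5 and 34.5 normalised CPM in pub1Δ Ribo-Seq, below 72.4, 69.1, 47.5 and 74.2 in wt, with a log2 change of -1.09 (SE 0.22, edgeR adjusted p 0.0732). Every pub1Δ Ribo-Seq library lay below the wt range for 2.37% of all tested genes.

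The glyoxylate cycle, which shares citrate with the peroxisomal synthase, was mostly under the minimum level for a test. Of its 6 genes only MDH2 and MDH3, encoding the cytosolic and the peroxisomal malate dehydrogenase, were tested, with log2 footprint changes in pub1Δ of -0.02 (SE 0.19, edgeR adjusted p 0.995) and -0.11 (SE 0.23, edgeR adjusted p 0.949). ICL1, the isocitrate lyase gene, had 25.5 to 35.0 normalised CPM in pub1Δ RNA-Seq and 24.5 to 26.1 in wt, but at most 4.45 in any Ribo-Seq library. PYC1 and PYC2, which encode the isoforms of pyruvate carboxylase that refill the cycle, differed in sign in pub1Δ Ribo-Seq, at 0.38 (SE 0.17, edgeR adjusted p 0.592) and -0.31 (SE 0.16, edgeR adjusted p 0.684). PYC1, known in yeast as a retrograde target, did not pass the test.

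The relatives of DLD3, the mitochondrial D-lactate dehydrogenases, showed log2 footprint changes in pub1Δ of -0.03 for DLD1 (SE 0.26, edgeR adjusted p 0.995) and -0.00 for DLD2 (SE 0.16, edgeR adjusted p 1.000). Levels of DLD1 differed between batches of the same strain, since it had 47.4 and 53.1 normalised CPM in the wt Ribo-Seq libraries of batch 1 and 11.4 and 7.16 in those of batch 4.

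Of the Hap complex, HAP2, HAP3 and HAP4 were tested, with a median log2 change in pub1Δ of 0.43 for transcripts and 0.07 for footprints. HAP3 was higher than every wt RNA-Seq library in all 5 pub1Δ and all 4 gir2Δ libraries, at 31.2 to 37.8 normalised CPM in pub1Δ, 26.01 to 35.1 in gir2Δ and 15.0 to 25.8 in wt. The log2 transcript change of HAP3 was 0.66 in pub1Δ (SE 0.19, edgeR adjusted p 0.286) and 0.70 in gir2Δ (SE 0.24, edgeR adjusted p 0.230), and both estimates use the same wt libraries. In RNA-Seq, 2.97% of all tested genes lay wholly above the wt range in pub1Δ and 2.3% in gir2Δ.

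Glutamate is the product for which the response supplies carbon, and its enzymes differed among themselves in pub1Δ. GDH2, encoding the glutamate dehydrogenase that degrades glutamate, had 72.7, 78.4, 58.8 and 62.0 normalised CPM in pub1Δ Ribo-Seq, against 36.2, 45.6, 39.7 and 32.5 in wt. These groups did not overlap, but the log2 footprint change of GDH2, 0.85 (SE 0.18, edgeR adjusted p 0.0933), missed the threshold, and its log2 transcript change was -0.02 (SE 0.13, edgeR adjusted p 0.972). GLT1, encoding glutamate synthase, had 447, 432, 359.8 and 354 in pub1Δ Ribo-Seq, below 545, 659, 719.6 and 479.9 in wt. Its log2 footprint change was -0.53 (SE 0.13, edgeR adjusted p 0.140). Every pub1Δ Ribo-Seq library lay above the wt range for 1.74% of all tested genes and below it for 2.37%. In RNA-Seq GLT1 also lay wholly below wt in pub1Δ, as did 1.23% of all tested genes. Its mean there was 225 normalised CPM in pub1Δ, against 308 in wt. Of the 5 genes of this group 4 were tested. In pub1Δ Ribo-Seq, GDH2 and GLT1 were called after ComBat-seq, beside 12.2% of all tested genes, and with 2 batch levels, beside 1.68%, and GDH2 was called without the filter, beside 0.583%.

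The mitochondrial genome left few reads in these libraries. Its 8 protein-coding genes summed to 8 to 131 RNA-Seq counts in pub1Δ, 22 to 49 in gir2Δ and 14 to 131 in wt, and to 11 to 94 Ribo-Seq counts in pub1Δ, 12 to 49 in gir2Δ and 26 to 91 in wt. The strains overlapped, none of the 8 was tested, and poly(A) selection was used for RNA-Seq.

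The genes whose levels were most like those of CIT2 were sought among all tested genes, by the Pearson correlation of log2 CPM centred on the mean of each assay, over 26 libraries that share strain, batch and depth with one another. The coefficient was 0.914 for BAT2, 0.860 for PUT2, 0.853 for ARI1, 0.846 for MCT1 and 0.845 for SPO24, with a median of -0.01 over all genes. BAT2 encodes the cytosolic branched-chain aminotransferase, PUT2 the pyrroline-carboxylate dehydrogenase of proline breakdown, ARI1 an aldehyde reductase, MCT1 a mitochondrial malonyl transferase of fatty acid synthesis and SPO24 a small protein of sporulating cells. Of the 10 genes described here, DLD3 came nearest to CIT2, at 0.727, followed by IDH2 at 0.597 and CIT1 at 0.473. Among the 4473 tested genes, with CIT2 itself as rank 1, these had ranks 32, 108 and 323. GDH2, at 0.787, and LST8, at 0.741, stood above DLD3. The pub1Δ values that chose CIT2 enter every coefficient, so the coefficients are descriptions. IDH1 had 0.100, RTG3 0.024, RTG2 0.010, ACO1 -0.20 and RTG1 -0.35.

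BAT2 (YJR148W, chromosome X 705744 to 706874) had 646, 629, 571, 434 and 473 normalised CPM in pub1Δ RNA-Seq, 305, 379, 243 and 277 in gir2Δ, and 274, 314, 283, 347 and 269 in wt. In Ribo-Seq it had 595, 588, 476 and 487 in pub1Δ, 261, 299, 184 and 201 in gir2Δ, and 264, 278, 262 and 293 in wt. As with CIT2, every pub1Δ library of BAT2 lay above every library of the other strains in both assays. Of all tested genes, 2.97% lay wholly above wt in pub1Δ RNA-Seq and 1.74% in Ribo-Seq, and 5.14% and 7.2% above gir2Δ. The log2 change of BAT2 in pub1Δ was 0.61 (SE 0.14) for transcripts and 0.81 (SE 0.19) for footprints. Both this change and the separation of BAT2 are descriptions, because likeness to CIT2 chose the gene. R boxes were found before BAT2 (2), PUT2 (1) and SPO24 (1), and none before ARI1 or MCT1.

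**Figure D5:**
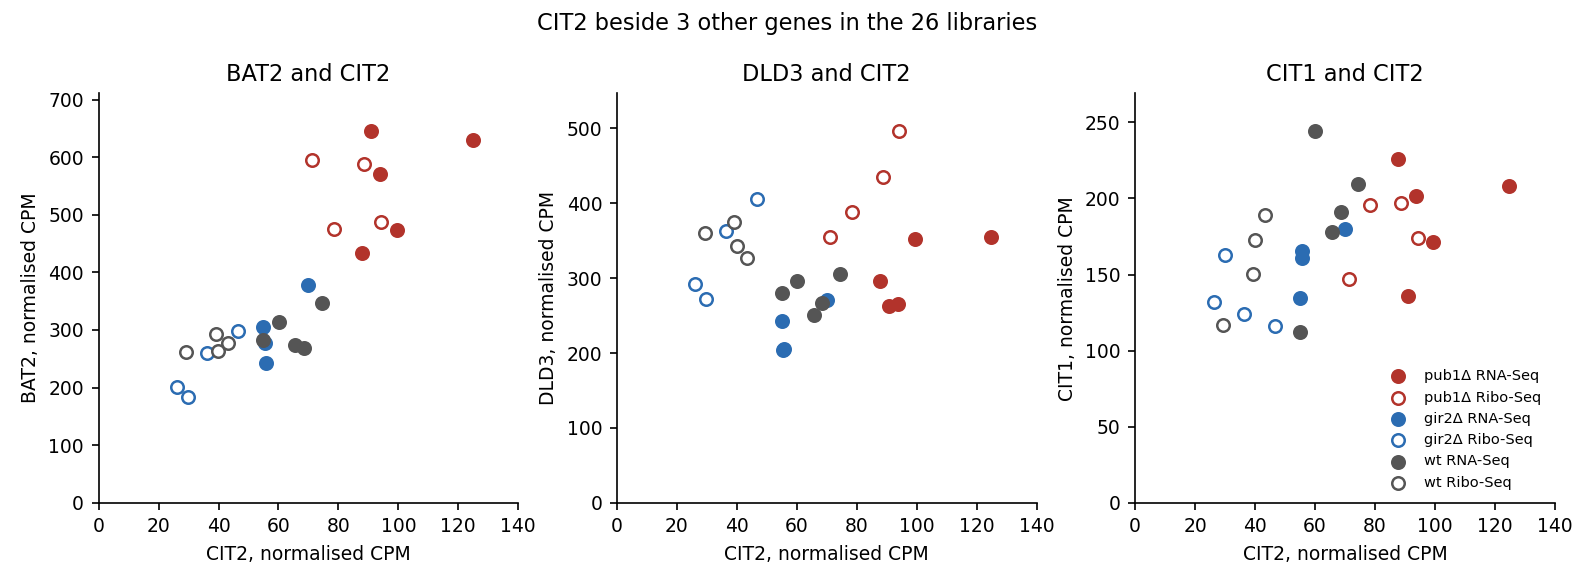
Normalised CPM of BAT2, DLD3 and CIT1 (vertical axes) against CIT2 (horizontal axes) in the 26 libraries, filled circles for RNA-Seq and open circles for Ribo-Seq. Within each assay the pub1Δ libraries stand apart along the CIT2 axis, along the vertical axis they stand apart for BAT2, and for DLD3 and CIT1 they overlap the other strains.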

How the data were processed

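Deposited counts of 14 RNA-Seq and 12 Ribo-Seq libraries were used. Per the submitters' notes and methods, the authors trimmed reads with cutadapt 2.10, removed rRNA reads with Bowtie2 1.2.3, and mapped and counted reads per gene with STAR 2.7.9a on the R64 build, and for Ribo-Seq removed duplicate reads first. The deposited counts are unnormalised gene-sense reads, and each of the 26 columns was identical to the file of its own library. Reads mapped to several places, not counted, were 6.23% to 12.3% in RNA-Seq and 41.0% to 61.2% in Ribo-Seq.

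Samples were grouped by the strain in their labels. Genes had to reach 10 CPM in at least 4 libraries of each assay. The edgeR 4.0.16 quasi-likelihood test (R 4.3.3, TMM factors, all 3 strains, batch and strain as terms) was adjusted with Benjamini-Hochberg over 4473 genes and called at 0.05. Batch was a model term, where the study corrected with ComBat-seq. Occupancy was the strain by assay term of a joint model. Normalised CPM used the TMM totals of tested genes. Standard errors are the absolute log2 change over the root of F.

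Other fits used no batch term, ComBat-seq (sva 3.50.0), batch in 2 levels, shared batches, compared strains alone, DESeq2 1.42.0, median-of-ratios factors, no filter, 30 CPM, both strands, a replicate block and each replicate left out. The test was tried on simulated libraries with an assumed spread, where 100 genes per comparison changed by 1 log2 unit. For pub1Δ it recovered 98 in RNA-Seq, 42 in Ribo-Seq and 47 for occupancy. For gir2Δ it recovered 83, 49 and 25, and for pub1Δ against gir2Δ 60 in RNA-Seq and 29 in Ribo-Seq. A gene that was not called may therefore still have changed. The 10 genes and the lists were chosen with earlier results of these data known. Named genes were these 10, of each list any gene called and those highest and lowest in pub1Δ Ribo-Seq, and the 5 most like CIT2. PUB1 and GIR2 were named to check the labels. Promoters came from the RefSeq R64 genome, and their window of 500 bases was chosen after the files were seen. Among 44 pairs of libraries of a group the lowest chi-square per degree of freedom was 2.12, so none was counted once for another.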

Additional observations from a re-analysis of the deposited data

Results flagged for a closer look

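Of 90 groups of 4 or 5 libraries examined, 3 held a library far from the others, and chance alone marks about 1 in 20. All were replicate 2 of gir2Δ. CIT2 had 70.0 normalised CPM in gir2Δ RNA-Seq replicate 2, where the other libraries had 54.9 to 55.8. IDH1 had 222 in gir2Δ Ribo-Seq replicate 2, where the others had 207 to 209. RTG3 had 36.1 in gir2Δ RNA-Seq replicate 2, where the others had 45.7 to 46.4.

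CIT2, BAT2 and SPO24 were flagged as differing between pub1Δ and gir2Δ. The flag marked an edgeR adjusted p under 0.05 between these strains, looked for only among the 10 genes and the 5 most like CIT2. PUT2 and ARI1 were examined and not flagged, although their pub1Δ libraries lay wholly above gir2Δ in both assays. GLT1, wholly lower in both assays, and GDH2, wholly higher in Ribo-Seq, were not examined for the flag. Of all tested genes, 5.14% lay wholly above gir2Δ in pub1Δ RNA-Seq and 7.2% in Ribo-Seq, and 6.64% and 9.59% wholly below. The log2 difference pub1Δ minus gir2Δ was 1.85 for CIT2 footprints, 1.28 for BAT2 footprints, 2.52 for SPO24 transcripts and 2.39 for SPO24 footprints. CIT2 was chosen on its pub1Δ values, and BAT2 and SPO24 on their likeness to it, so these differences are descriptions. SPO24 stood at 135 to 265 normalised CPM in pub1Δ RNA-Seq, 48.7 to 76.2 in gir2Δ and 56.3 to 154 in wt.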

How the results depend on the processing

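No value changed sign while called in any setting. The counts below include CIT2, whose pub1Δ values chose it, and are no test of it. Each count has to be read beside the share of all tested genes called, which was 12.2% in pub1Δ Ribo-Seq after ComBat-seq. The number of the 9 genes called in pub1Δ Ribo-Seq was 3 after ComBat-seq or within the shared batch, and 0 with a replicate block, where CIT2 stood at 1.26, or without wt replicate 1 or wt replicate 4 (range over left-out replicates 0 to 1, CIT2 1.24 to 1.27). In pub1Δ RNA-Seq the number called was 1 without a batch term, after ComBat-seq or with 2 batch levels, beside 0.805%, 11.0% and 3.02% of all genes. The log2 change of CIT2 in these settings was 0.61, 0.53 and 0.68 (0.52 to 0.61 over left-out replicates, with 0 called in each). For pub1Δ occupancy 1 gene was called after ComBat-seq, CIT2 at 0.74, beside 2.75% of all genes. A block of strain and replicate number gave CIT2 0.38 (0.64 to 0.74 over left-out replicates). In gir2Δ the calls after ComBat-seq were 5 in RNA-Seq, 1 in Ribo-Seq and 1 for occupancy, beside 33.9%, 25.4% and 22.9% of all genes. For pub1Δ against gir2Δ in RNA-Seq the calls were 1 without a batch term, 5 after ComBat-seq and 1 with 2 levels (0 to 1 over left-out replicates). The shares of all genes there were 1.45%, 41.4% and 1.18%. In Ribo-Seq the calls were 5 after ComBat-seq, 2 with 2 levels and 2 without the filter (1 to 2), beside 28.1%, 2.79% and 0.757%. The cause was not tested.

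Same-numbered libraries of different strains deviated from their group means with coefficients from -0.60 to 0.89. These deviations include differences between batches, so the coefficients cannot decide whether the numbers pair the strains. The replicate block changed no other count of calls. Fits without gir2Δ replicate 4 or pub1Δ Ribo-Seq replicate 4, and pub1Δ against gir2Δ within shared batches, could not be made. Depth limits CIT3, and RTG1 and RTG3 in the shallow pub1Δ Ribo-Seq libraries.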
